A study of Mus musculus with 2 samples.

Results

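Histone genes were examined in LKS+ cells after co-culture with EVs. LKS+ cells are BM cells without lineage markers that carry c-kit and Sca-1, and they include the HSPCs of the mouse. All probes were taken whose gene symbol, current or former, is that of a core histone, a linker histone or one of their variants. There were 74 such probes among 56605, and they stood for 64 genes among the 22907 genes named on the array. Of these 64 genes, 45 were replication-dependent, 13 were variant and 6 were germline genes. The annotation lists 94 histone genes by the same rule, and 30 of them, 8 of these pseudogenes, had no probe named here.

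The cells came from the BM of WT mice and were propagated in serum-free medium with SCF, IL-6 and IL-3 before co-culture. They then received 150 μg/ml of SP-derived EVs for 24 h, either from normal mice (control EVs) or from CML mice (CML EVs), whose disease arises from transplanted LKS+ cells that carry a retroviral BCR-ABL. The study's methods state that the CML donors had been irradiated, which the labels do not mention, and no such treatment is stated for the control mice. Leukemia and the irradiation of donors therefore cannot be told apart. Each condition was 1 culture on 1 one-colour array. There was thus no replicate check of any difference, and the ratios below describe these 2 arrays, with no p-value.

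Histones are the proteins around which DNA is wound into nucleosomes, with H2A, H2B, H3 and H4 in the core and the linker histone H1 on the outside. The replication-dependent genes lie in clusters, have no introns and are switched on together in S phase, when new DNA has to be packaged, and their mRNAs usually end in a stem loop in place of a poly(A) tail. Variant genes such as H2az1 or H3f3a stand alone in the genome, make polyadenylated mRNA throughout the cell cycle and place specialised histones at promoters, heterochromatin or sites of DNA damage, while germline histones serve testis and oocyte. The labeling kit primes from poly(A) tails, and how much of each replication-dependent mRNA was labeled was not tested.

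Promoters of replication-dependent genes are known to carry short shared motifs, and promoter sequences of some of the genes named below are shown for this reason. They are from RefSeq (GRCm38.p6), where a window of 300 bases around the start and mostly before it was given for 57 of the 64 genes. H3c7 had no window, and no promoter is shown for H1f8. The lines give the 150 bases before the start of each gene, or the 163 bases between the starts of a divergent pair, 5′ to 3′ on the strand named. Capitals mark CCAAT, its reverse complement ATTGG, and the octamer ATTTGCAT that is known from H2B promoters.
H2ac15 and H2bc15, between their starts (chr13:21753913-21754075, plus strand): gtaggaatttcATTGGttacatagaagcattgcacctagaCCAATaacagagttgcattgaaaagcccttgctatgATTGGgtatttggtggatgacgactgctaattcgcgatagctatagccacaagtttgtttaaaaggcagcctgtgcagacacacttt
H2bc18 (chr3:96269550-96269699, plus strand): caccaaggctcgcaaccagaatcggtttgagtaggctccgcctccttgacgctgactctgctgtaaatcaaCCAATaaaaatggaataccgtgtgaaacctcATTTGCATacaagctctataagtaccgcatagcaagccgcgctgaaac
H3c13 (chr3:96268504-96268653, plus strand): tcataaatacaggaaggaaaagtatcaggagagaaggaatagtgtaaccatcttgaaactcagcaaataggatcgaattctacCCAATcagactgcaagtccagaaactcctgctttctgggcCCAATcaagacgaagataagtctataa
H2az1 (chr3:137864337-137864486, plus strand): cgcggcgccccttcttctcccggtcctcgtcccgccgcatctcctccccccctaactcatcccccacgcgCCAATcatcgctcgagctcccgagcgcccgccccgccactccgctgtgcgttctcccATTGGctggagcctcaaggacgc
Macroh2a1 (chr13:56135551-56135700, minus strand): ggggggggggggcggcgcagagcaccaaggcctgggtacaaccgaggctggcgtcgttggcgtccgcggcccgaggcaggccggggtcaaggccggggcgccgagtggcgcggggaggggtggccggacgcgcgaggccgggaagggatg
The stretch shared by H2ac15 and H2bc15 holds 1 CCAAT as written and 2 in reverse, that of H2bc18 holds CCAAT and the octamer, and that of Macroh2a1 holds none of the motifs. On either strand of the whole window, CCAAT was found in 35 of 41 windows of the replication-dependent genes (85.4%), in 8 of 11 windows of variant genes and in 37.4% of all 32851 windows. All windows of the replication-dependent H1, H2A, H2B and H3 genes held it, but only 2 of 8 H4 windows did. TATAAA was present in 23 of 41 replication-dependent windows (56.1%), in 1 of 11 variant windows and in 13.6% of all windows. Among replication-dependent genes, the octamer ATTTGCAT was present in 4 of 13 H2A windows, 4 of 10 H2B windows and none of the H1, H3 and H4 windows. It was also present in 1 of 11 variant windows and in 1.74% of all windows. None of the motifs contains another, but windows of divergent H2A and H2B genes share bases and are not independent of each other. These matches describe the letters and are not shown to be binding sites.

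Signals are the scanner's background-subtracted intensities, scaled to a mean of 2500 on each array after the upper and lower 2% of spots were left out, and ratios are log2 of the CML EV signal over the control EV signal. Where 2 signals of a gene are given, that with control EVs comes first and the log2 ratio follows in parentheses. Of the 64 genes, 57 were well above background on both arrays (43 replication-dependent, 11 variant and 3 germline), which is called measured below. H1f6 was above background with control EVs only, and H1f7, H2ac7, H2al2a, H2bc22, H2ab1 and H2ab2 on neither array. The arrays give the scanner's error and the spread between repeated spots, and neither covers the spread between cultures. The scanner's own error of a log2 ratio had a median of 0.20 over the measured histone genes and reached 0.28. It was never below 0.204 and was nearly the same for all bright genes, so that for these it is close to a fixed width. Where a ratio is called within or beyond the scanner's error, it is compared with that width and not with a spread seen between spots. Probes that were spotted repeatedly had a median SD of the log2 ratio of 0.034 at a log2 signal of 8 or more (263 probes) and of 0.15 below it (8 probes).

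As a whole, the histone genes differed little between CML EVs and control EVs. The median log2 ratio of the 57 measured genes was 0.0024, beside 0.0065 for all 13409 measured genes, and the values ran from -0.30 to 0.27. The signal was higher with CML EVs for 29 genes and lower for 28, so that 50.9% were higher where 51.9% of all genes were. Only 1 gene, H3c7, was at least 1.2-fold higher, where 6.96% of all genes (933) were, and only 1, H1f8, was at least 1.2-fold lower, where 7.52% of all genes (1009) were. Of the histone genes, 3 lay beyond 1 scanner error from 0, namely H3c7, H1f8 and H2bc18, and 0 lay beyond 2. With normexp background correction neither H3c7 nor H1f8 was past 1.2-fold, and H1f8 was also short of it with median scaling and quantile normalization. Ratios near 0 have no settled direction: 12 of the 35 histone genes named by the rule, all within 0.060 of 0, changed sign under at least 1 alternative (H1f1, H1f10, H2ac21, H2ac23, H2aj, H2bc1, H2bc3, H2bc23, H3c1, H3f3a, H4c3 and Macroh2a2).

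**Figure D1:**
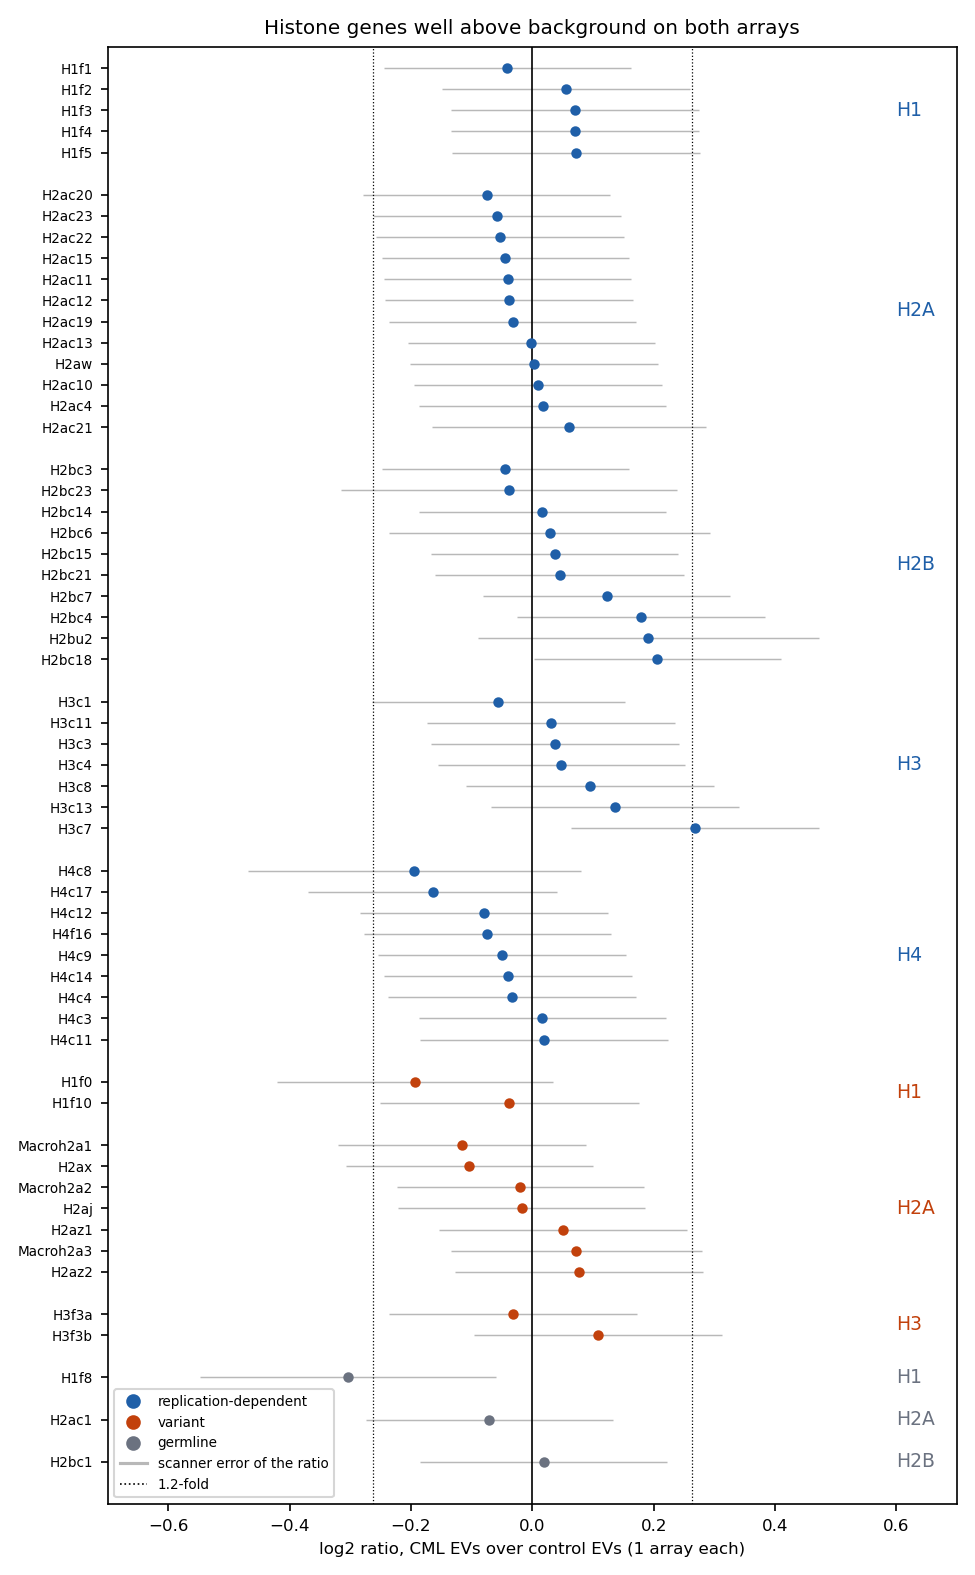
Log2 of the CML EV to control EV ratio (x axis) for each of the 57 histone genes well above background on both arrays, grouped by class (colour) and histone family (label at right). Points are the ratio of 1 array to 1 array, grey bars the scanner's error of the ratio and dotted lines 1.2-fold. Most points lie between the dotted lines with bars across 0, H3c7 (0.27) lies just past the line on the right and H1f8 (-0.30) past that on the left.

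Among the 43 measured replication-dependent genes, 24 were higher and 19 lower with CML EVs, and their median log2 ratio was 0.017, or -0.0017 with normexp background correction. The 11 measured variant genes had 4 higher and 7 lower, with a median of -0.020, which turned to 0.051 with median scaling and 0.0033 with quantile normalization. The median of all genes was 0.077 and 0.00048 under these settings, in that order. The difference of the medians was 0.036. The replication-dependent genes ran from H4c8 to H3c7, and the variant genes from H1f0 to H3f3b, so that the ranges of the classes overlapped widely.

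H3 forms the core tetramer with H4 and carries many of the modified residues of chromatin. H3c7 had a signal of 401 on the control EV array and 482 on the CML EV array, a log2 ratio of 0.27, which is 1.31 times the scanner's error. H3c13, from the smaller histone cluster on chromosome 3, had 4260 and 4682 (0.14). Of the 7 replication-dependent H3 genes, 6 were higher and 1, H3c1, was lower, from 130 with control EVs to 125 with CML EVs (-0.056). H3c8 had 348 and 372 (0.095) and H3c11 had 355 and 362 (0.031). The family's median was 0.048, or 0.041 after quantile normalization and 0.048 with normexp background correction. The other scalings leave every ratio as it is or raise all by a shared amount, so they could not bring this median below 0.

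H2B pairs with H2A in the nucleosome core, and 8 of the 10 measured H2B genes were higher. H2bc18, whose promoter above holds both CCAAT and the octamer, had 3062 and 3532 (0.21), or 1.01 times the scanner's error. H2bu2 had 27.3 and 31.2 (0.19) at a dim signal where spots spread more, and H2bc4 had 907 and 1027 (0.18). The 2 lowest were H2bc3, with 4530 and 4393 (-0.044), and H2bc23, with 30.3 and 29.5 (-0.038). Both lay well inside the scanner's error. The family's median was 0.041, or 0.067 after quantile normalization and 0.032 with normexp background correction, while the other scalings could not lower it.

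The replication-dependent linker histones H1f1 to H1f5, which bind the DNA between nucleosomes, had a median log2 ratio of 0.071. This median was 0.041 after quantile normalization and 0.085 with normexp background correction, while the other scalings could not lower it. H1f5 had 10754 with control EVs and 11305 with CML EVs (0.072), and H1f4 had 10823 and 11368 (0.071). H1f1 was the only one of the 5 below 0, with 912 and 887 (-0.041). The other 4 lay between 0.056 and 0.072, all well inside the scanner's error.

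H2A and H4 had medians just below 0 as scaled here, -0.036 over 12 H2A genes and -0.050 over 9 H4 genes. When each array was scaled to its median they were 0.035 and 0.020, and the median of all genes went from 0.0065 to 0.077. This scaling moves all ratios by a shared amount, so it could not change the place of either family below all genes. With quantile normalization the medians were 0 for H2A and -0.043 for H4, beside 0.00048 for all genes. With normexp background correction they were -0.028 and -0.065, beside 0.0025. Of the measured H2A genes 8 were lower and 4 higher. H2ac20 was the lowest, with 162622 with control EVs and 154356 with CML EVs (-0.075), and H2ac23 had 137389 and 131999 (-0.058). The highest were H2ac21, with 55.7 and 58.1 (0.060), and H2ac4, with 43716 and 44233 (0.017). All 12 lay between -0.075 and 0.060, the narrowest range of the core families.

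Many genes encode nearly the same H4 protein, and 7 of its 9 measured genes were lower. H4c8 had 36.9 with control EVs and 32.3 with CML EVs (-0.19), and H4c17 had 227 and 202 (-0.16), both at dim signals. The highest were H4c11, with 3528 and 3576 (0.020), and H4c3, with 1535 and 1553 (0.017). H4c4, which was spotted 10 times, had a log2 ratio of -0.033 with an SD of 0.036 over its spots.

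By position in the genome, the 33 measured replication-dependent genes of the large cluster on chromosome 13 had a median log2 ratio of 0.017, the 7 on chromosome 3 of 0.045 and the 2 on chromosome 11 of 0.097, while H4f16, alone on chromosome 6, had -0.074. The value of chromosome 11 rests on H2aw (0.0024) and the dim H2bu2. Divergent H2A and H2B genes share the stretch between their starts, and 10 divergent pairs of histone genes had starts within 500 bases in the annotation, of which 3 had both genes measured. H2ac15 had 153836 with control EVs and 149196 with CML EVs (-0.044), and its partner H2bc15 had 3196 and 3278 (0.037). The pair H2ac23 and H2bc23, 167 bases apart, had -0.058 and -0.038, and the pair H2ac1 and H2bc1, 280 bases apart, had -0.071 and 0.019. The members of a pair thus differed by 0.020 to 0.089 on the log2 scale, less than the scanner's error. In 2 further pairs only 1 gene was above background, H2ac22 (136726 and 131765) beside H2bc22 and H2bc7 (1544 and 1680) beside H2ac7.

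**Figure D2:**
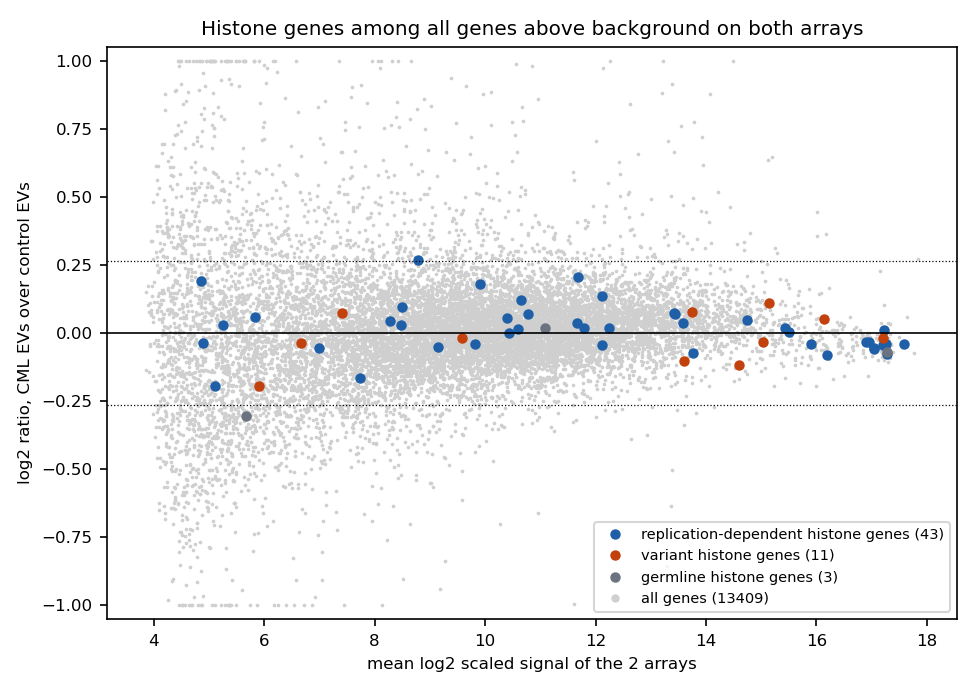
Log2 of the CML EV to control EV ratio (y axis) against the mean log2 scaled signal of both arrays (x axis) for all 13409 genes above background on both arrays (grey) and the histone genes (coloured by class). Dotted lines mark 1.2-fold, and the 83 genes beyond a log2 ratio of 1 are drawn at the edges. Histone genes lie in the middle of the grey cloud at low and middle signals, and a group of them sits at the far right close to 0.

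Many histone genes encode nearly the same protein from nearly the same sequence, so that a probe may also bind mRNA of its neighbours. The measured set held 11 genes with a signal over 100000 on both arrays, out of 82 such genes among all measured genes. They were 8 of the 12 replication-dependent H2A genes, H4c4, the H2A variant H2aj and the germline gene H2ac1. The ratios of the 8 H2A genes lay between -0.075 and 0.0095. H2ac1, known as a testis histone, had 163178 with control EVs and 155382 with CML EVs (-0.071). Whether such probes read their own gene or several was not tested, since probe sequences were not used here. In addition, for 21 of the 64 genes (1 H2A, 4 H2B, 7 H3 and 9 H4 genes) the annotation lists the symbol of another histone gene among the older names. An older name may thus point to another member, while the values here were assigned through accessions. No spot was saturated on either array.

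The variant genes were each followed by name. H2A.Z, which marks promoters and enhancers, comes from H2az1 and H2az2. H2az1 had 71163 with control EVs and 73703 with CML EVs (0.051, with an SD of 0.041 over its 10 spots), and H2az2 had 13313 and 14043 (0.077). H2ax, whose protein is phosphorylated around DNA breaks, had 12923 and 12028 (-0.10). The H2A.Z genes were thus a little higher and H2ax a little lower, all within the scanner's error. H2aj had 151722 and 149894 (-0.017).

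Macroh2a1 encodes macroH2A, a large H2A variant enriched in silent chromatin, and was the one variant read by 4 probes. With control EVs and CML EVs they had 25829 and 23838, 9563 and 8645, 4280 and 3665, and 222 and 177. The log2 ratios were -0.12, -0.15, -0.22 and -0.33 in that order. All 4 were below 0 under each scaling that was tried and with normexp background correction, with the first 2 within the scanner's error and the others beyond it. The first 2 are annotated to the same transcript and the others each to a different one, and whether they read the same mRNA was not tested. Probes of a gene share the same 2 cultures and are no replicates of the condition. Macroh2a2 had 775 and 765 (-0.020), and Macroh2a3, annotated as a transcribed pseudogene, had 167 and 175 (0.073).

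The replacement histone H3.3 is made by H3f3a and H3f3b and is deposited outside of replication. H3f3a had 33691 with control EVs and 32950 with CML EVs (-0.032) and H3f3b had 34929 and 37656 (0.11). The other probes of H3f3a disagreed in size, with 12078 and 11402 (-0.083) and, at a dim signal, 29.3 and 16.6 (-0.83). The second probe of H3f3b had 23517 and 23653 (0.0086). Apart from the dim probe, the 4 probes of H3.3 lay between -0.083 and 0.11.

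The variant linker histone H1f0, which builds up in cells that stop dividing, had 64.3 with control EVs and 56.2 with CML EVs (-0.19). H1f10 had 103 and 100.4 (-0.038). Both signals were dim, and both ratios were within the scanner's error.

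**Figure D3:**
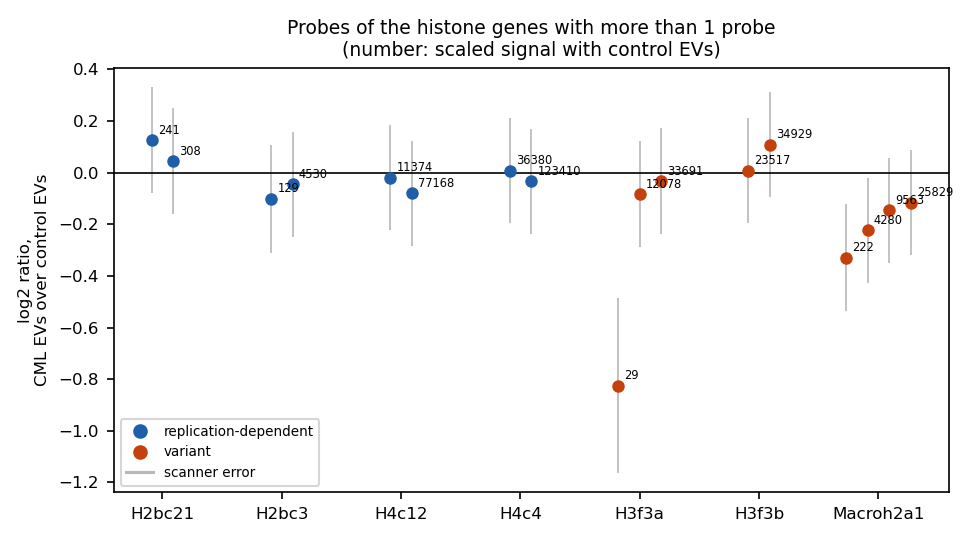
Log2 of the CML EV to control EV ratio (y axis) of every probe of the 7 histone genes with more than 1 probe, each beside its scaled signal with control EVs. Bars are the scanner's error. The 4 probes of Macroh2a1 lie below 0, from -0.12 to -0.33, and the dim probe of H3f3a (-0.83) lies far from its other probes.

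The germline genes were mostly dim or below background. H1f8, the oocyte linker histone, had 56.5 and 45.8 (-0.30, 1.23-fold lower), or 1.25 times the scanner's error. H1f6, a testis linker histone, had 15.4 with control EVs and was not well above background with CML EVs, at 8.47, which gives at least 1.13-fold lower against the lowest signal well above background on that array. H2bc1 had 2165 and 2193 (0.019).

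Genes that act on histone mRNA and histone proteins were set beside the members. Of the list of histone mRNA processing and transcription, 22 genes were measured, 16 higher and 6 lower, and 0 were past 1.2-fold in either direction. Slbp, which binds the stem loop of histone mRNA, had 754 with control EVs and 744 with CML EVs (-0.020). Npat, the coactivator of the histone clusters, had 212 and 199 (-0.088), the lowest of the list, and the 3′ end factors Cstf2 (0.17) and Cpsf1 (0.14) were the highest, with the cap-binding Ncbp1 at -0.069. The list's median log2 ratio was 0.033.

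Of the 29 histone chaperones and exchange factors, 14 were higher and 15 lower, none past 1.2-fold, with a median of -0.0002. With median scaling it was 0.070, where that of all genes was 0.077. Vps72, a subunit of the complexes that deposit H2A.Z, had 122 with control EVs and 103 with CML EVs (-0.25). Anp32e, which removes H2A.Z, had 2913 and 3240 (0.15). Of the others, Supt16, part of the FACT complex, had -0.18 and Hjurp, the chaperone of the centromeric H3, had 0.15.

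Because replication-dependent histone mRNA follows S phase, genes of the cell cycle were given as well. Of 24 measured S phase genes 17 were higher and 7 lower, with a median of 0.031 and 0 past 1.2-fold. Gins2 (0.12) and Fen1 (0.10) were the highest and Gins1 (-0.12) and Prim1 (-0.076) the lowest, all genes of the replication fork. Of 18 mitosis genes 9 were higher and 9 lower, with a median of 0.012, which became -0.017 after quantile normalization, and a range from Ccna2 (-0.12) and Cenpf (-0.090) to Ccnb1 (0.14) and Birc5 (0.17).

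**Figure D4:**
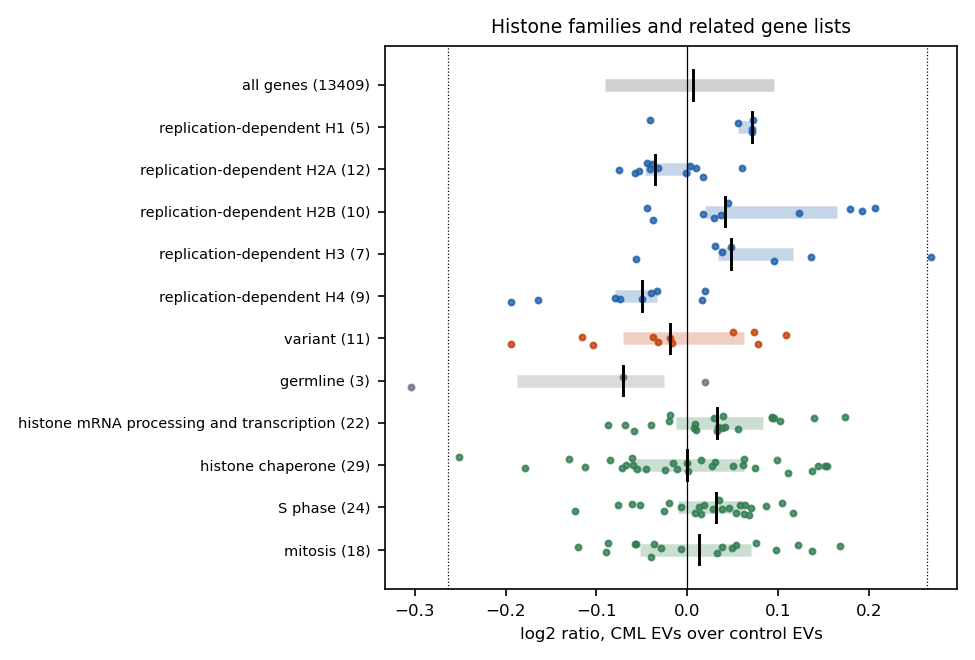
Log2 of the CML EV to control EV ratio (x axis) for the replication-dependent families, the variant and germline genes and 4 related gene lists, with the number of measured genes in parentheses. Points are genes, bars the middle 50% of values and black lines medians, and for all genes only bar and median are drawn. Every median lies within 0.1 of 0, and the families of H1, H2B and H3 lie slightly to the right of H2A and H4 in these 2 arrays.

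Marker lists of stem and progenitor cells and of other cell types were set beside the histone values. The 9 stem and progenitor markers had signals that summed to 40973 with control EVs and 36720 with CML EVs. Cd34 alone had 24845.4 and 21996.5 (-0.18). Such sums follow the brightest probes and include genes below background. Of the 9 markers, 8 were measured, 7 lower and 1 higher, with Slamf1 (-0.37) past 1.2-fold lower and Ly6a (0.36) past 1.2-fold higher. The late neutrophil markers, of which 9 of 10 had a named probe, summed to 229084 and 295274, with S100a9 alone at 134970 and 158211. Of these, 8 were measured, 6 higher and 2 lower, with 4 past 1.2-fold higher, where 6.96% of all genes were. Ltf had 7821 with control EVs and 14729 with CML EVs (0.91), Ngp 6914 and 12726 (0.88) and Camp 12653 and 23235 (0.88). The 2 lower were Mmp8 (-0.094) and Cxcr2 (-0.093). The macrophage markers had 4 of 5 measured, 3 higher and 1 lower. Vcam1 had 110 with control EVs and 247 with CML EVs (1.17), and Mertk, at a dim signal, had 16.9 and 21.7 (0.36). Adgre1 had a log2 ratio of 0.024 and C1qb of -0.19, and C1qa was above background on neither array. Of the T and NK cell markers 2 of 5 were measured, Cd3d with 141 and 176 (0.32) and Cd3e with 143 and 136 (-0.073). Of the erythroid markers 3 of 5 were measured, 2 higher and 1 lower, with 0 past 1.2-fold. The B cell gene Vpreb1 had 222 and 195 (-0.19), Pax5 was above background with control EVs only, and Cd79a and Ms4a1 were above background on neither array. Every list with more than 1 measured gene thus held genes in both directions. In bulk RNA fewer cells of a type and less RNA per cell cannot be told apart, and the part of these differences in the histone values was not tested.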

How the data were processed

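RNA of LKS+ cells was hybridized to 1 one-colour Agilent array per condition (SurePrint G3 Mouse v2). The authors' scanner files hold background-subtracted intensity from Agilent Feature Extraction 12.0.3.1 (submitters' processing notes), and the deposited value table gives that intensity multiplied by a constant (largest relative deviation 5.0e-10 over 59305 spots). Intensity was scaled to a mean of 2500 without the upper and lower 2% of spots, outlier spots (95 and 88) were left out, and log2 values were averaged per probe. Genes were named through RefSeq accessions (GRCm38.p6, 32989 of 56605 probes), with the probe of the highest CML EV value per gene, as the methods state. A threshold of 1.2-fold was used.

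Named genes were the 2 highest and 2 lowest of each replication-dependent family and of each related list, all variant and germline genes above background on at least 1 array, the genes past the threshold and the 3 whose probes disagreed most. Members, lists and threshold were chosen with earlier results of these data known. Genes named to describe pairs, clusters or bright probes were chosen after their values were seen. Alternatives covered scaling, normexp background correction (limma 3.58.1, R 4.3.3), probe choice, filters, outliers and threshold. The steps were tested on simulated data. Python 3.11.15, numpy 2.4.6 and pandas 2.3.3 were used. Precision is limited by the number of arrays, and no test was made.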

Additional observations from a re-analysis of the deposited data

How the results depend on the processing

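The difference of the medians, replication-dependent minus variant, was 0.036 and cannot change where each array is multiplied by a constant. Quantile normalization reduced it to 0.0083 and normexp background correction to 0.021. Scaling each array to its median, which moved the median of all genes from 0.0065 to 0.077, gave medians of 0.087 (replication-dependent) and 0.051 (variant), with 2 genes at least 1.2-fold higher (H3c7 and H2bc18) and 0 lower. It also turned H1f1 (0.029), H2ac23 (0.013) and H2bc3 (0.026) to above 0. Quantile normalization gave 0 genes 1.2-fold lower and a variant median of 0.0033, and normexp gave 0 higher, 0 lower and a replication-dependent median of -0.0017. The count of lower genes was 2 with the mean of all probes (H3f3a added, at -0.31), 2 where 1 array above background was enough (H1f6 added) and 4 without a filter. At 1.5-fold and at 2-fold, 0 genes were higher and 0 lower. Of 280 alternative values of the 35 named histone genes, 244 moved by less than the spread between spots, 33 by more, and 3 turned from beyond that spread to above 0, as given above. This count includes settings that could move few or no values. Deposited values, kept outlier spots and the probe of the highest control EV value each left all 35 within the spread. Median scaling left only 11 of the 35 within it. In all, 18 values of 12 genes changed sign, each from a log2 ratio within 0.060 of 0. Alternatives chosen after seeing the data gave replication-dependent medians of 0.031 without H2A genes and 0.030 without genes over 100000 on both arrays, and a variant median of -0.019 with a difference of 0.035 without Macroh2a1. Names from a gene name column could not be tried, since the files used here hold accessions. No paired analysis was possible because only 1 array was made per condition. Dim signals limit H1f8, H1f0, H2bu2 and H4c8.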
